A study of Bos taurus with 6 samples.

Results

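The genes described here are 52 chromatin regulators of the bovine morula, chosen by symbol alone from 13683 annotated symbols. A gene was taken when its symbol began with SMARC and a letter, or with ARID, CHD, HDAC, SIRT, BRD, KAT or ING and a digit, and when its row carried no second gene. The names give 11 SMARC, 6 ARID, 7 CHD, 4 BRD, 3 KAT, 5 ING, 9 HDAC and 7 SIRT genes. No measured value is part of this rule, although earlier results of these data were known when the members were chosen. All 52 symbols have an entry in the RefSeq table of the ARS-UCD2.0 assembly, and 20 other protein-coding symbols there that fit the same names were not analysed here. SMARCA4 carries the row name of a microRNA as well in all 6 libraries and is therefore no member.

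Each library was made from 1 in vitro produced morula on day 6 after fertilization. The 3 MAT2A-inhibited morulae had been cultured with 20 µM FIDAS-5, an inhibitor of the enzyme that makes S-adenosylmethionine, from 72 h after insemination, at 8 to 16 cells, until 144 h. The 3 control morulae received 0.1% DMSO, the vehicle of FIDAS-5, over the same time, and both groups were grown in mSOF medium with bovine serum albumin at 5% oxygen. The labels give no breed and no sex of the embryos. They also do not say whether the embryos of a group shared a culture, and the p-values below therefore describe variation among the 6 embryos only, which may be technical.

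Nucleosomes are opened, slid and evicted by remodelers, which spend ATP, and are marked by acetylation of histone tails. Lysine acetyltransferases (KAT) add the mark, bromodomain proteins (BRD) bind it, and histone deacetylases (HDAC) and the NAD-dependent sirtuins (SIRT) remove it. ING proteins carry PHD fingers that tie acetyltransferase and deacetylase complexes to methylated histone H3, and ARID proteins bind DNA for several of these complexes. In the cleaving embryo these enzymes act on a genome that has just been activated.

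Values are FPKM, fragments per kilobase of transcript scaled to the mapped fragments of the library, which allows levels to be compared between genes. A difference is the mean log2(FPKM + 1) of MAT2A-inhibited morulae minus that of controls, with the standard error (SE) of a limma fit over 7319 genes and a p-value adjusted by Benjamini-Hochberg over all of them. This scale understates the change of low genes. Depth was 46500000 to 59900000 fragments per library, and the mean correlation of a library with the other 5 was 0.930 to 0.945. The embryo genes POU5F1, DPPA3 and SOX2 were present in every library, with lowest values of 255, 453.5 and 27.6 FPKM. Other embryo genes listed were lower or less even. NANOG ran from 1.16 to 20.3, CDX2 from 0.188 to 2.77 and GATA3 from 6.50 to 83.4 FPKM. KRT8 and KRT18 ran from 4.49 and 8.67 FPKM in control 2 to 400 and 363 FPKM in control 3. Of the 8 embryo genes listed, 3 did not overlap between groups, beside 13.4% of all tested genes. DPPA3 was at 453.5 to 575 FPKM in MAT2A-inhibited and 661 to 881 FPKM in control morulae. NANOG was at 1.16 to 1.88 against 2.54 to 20.3 FPKM, and SOX2 at 45.2 to 50.8 against 27.6 to 41.5 FPKM. None of the 8 passed limma after adjustment, and their part in the results was not tested. Of the 2 blood genes listed, HBA was at 63.1 to 132 FPKM. HBB was listed at 0 in every control and was at most 1.72 FPKM in MAT2A-inhibited morulae. Their part was not tested. The 6 cumulus genes listed summed to 43.5 to 82.9 FPKM in MAT2A-inhibited and 60.1 to 128.8 FPKM in control morulae, and their part in the results was not tested. Most of this was SERPINE2, at 41.0 to 80.2 FPKM in MAT2A-inhibited and 53.9 to 122 FPKM in control morulae. VIM was at most 0.501 FPKM, and DCN and LUM stood out in control 2, at 11.002 and 4.81 FPKM. The 3 sperm genes listed, TNP1, TNP2 and PRM1, summed to 5.13 to 11.45 FPKM in MAT2A-inhibited morulae. In control morulae they summed to 2.53 to 4.79 FPKM, and these sums did not overlap between groups. All 3 had a difference above 0, but each gene alone overlapped between groups and none passed limma after adjustment. Their part in the results was not tested. MAT2A itself was at 71.7 ± 19.1 FPKM in MAT2A-inhibited and 76.1 ± 2.74 FPKM in control morulae (SD, n = 3 each; limma adjusted p = 0.914). EIF1AY, a gene named for its Y-linked copy, was at 38.2 and 106.9 FPKM in the MAT2A-inhibited embryos 2 and 3 and listed at 0 in MAT2A-inhibited morula 1 and in every control. DDX3Y, also named for a Y-linked copy, was at 14.96 and 7.943 FPKM in the same 2 embryos and listed at 0 in every other library. USP9Y was at 4.099 and 1.4955 FPKM in these embryos and at most 0.193 FPKM elsewhere. The rows of EIF1AY, DDX3Y and USP9Y are placed on chromosome X. Libraries with this signal were thus all from MAT2A-inhibited morulae, so it was not balanced between groups. Its part in the results was not tested. Values per embryo are given from replicate 1 to replicate 3 of a group.

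The members spanned the whole range from listed at 0 to above 300 FPKM. Of the 51 with a row in every library, 3 had a mean of at least 100 FPKM over the 6 libraries, 16 lay between 10 and 100, 28 between 1 and 10, and 4 under 1. HDAC1 led with a mean of 262 FPKM, followed by the remodeler ATPase SMARCA5 at 139.6, HDAC2 at 125 and the sirtuin SIRT1 at 97.3 FPKM. HDAC8, measured in 5 libraries, averaged 107.7 FPKM. SIRT1 made up 72.9% of the summed sirtuin FPKM, BRD7 62.6% of the BRD sum and SMARCA5 55.6% of the SMARC sum. HDAC1 made up 56.5% of the sum of the 8 HDAC genes with a row in every library, and 46.2% of the sum of all 9, HDAC8 included, over 5 libraries. The ING class was the most even, with ING4 at 27.3%. At the low end, SMARCA1, the close relative of SMARCA5, was listed at 0 in all 6 libraries, and SMARCD3 and HDAC11 averaged 0.337 and 0.571 FPKM. Tested members had a median level of 9.58 FPKM, against 12.8 FPKM for all tested genes.

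**Figure D1:**
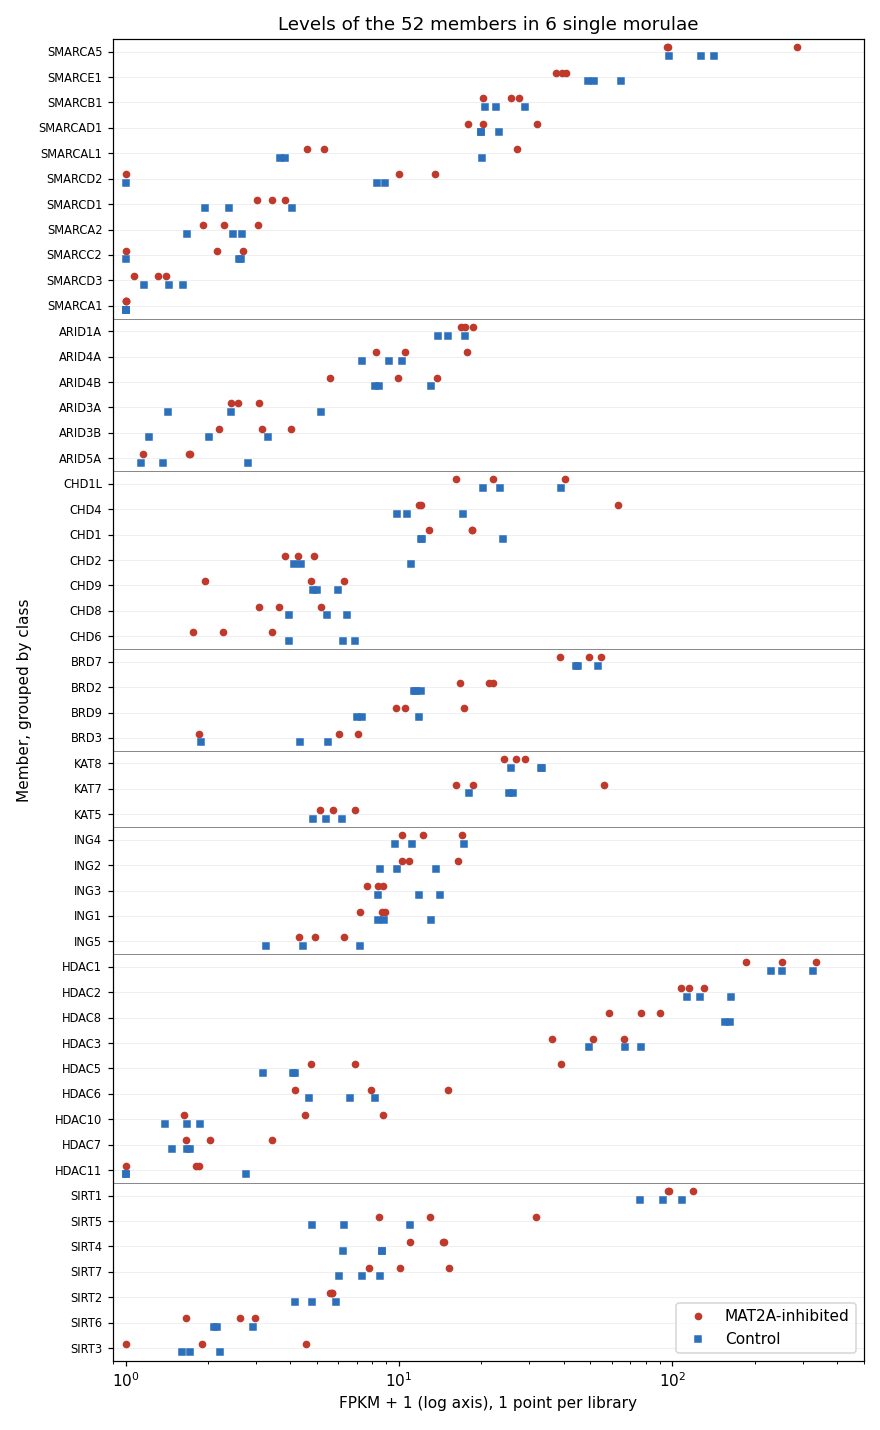
FPKM + 1 of the 52 members on a log axis, 1 point per library, with MAT2A-inhibited morulae as red circles above control morulae as blue squares and members ordered by mean level within each class. HDAC1, HDAC2, HDAC8, SMARCA5 and SIRT1 lie furthest right, and SMARCA1 sits at 1, which is 0 FPKM.

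No member passed the test between groups. Of the 52 members, 44 had a row in every library, reached 1 FPKM in at least 3 and were tested. HDAC8 lacked a row of its own in control 2, and ARID5A, HDAC7, HDAC10, HDAC11, SIRT3, SMARCA1 and SMARCD3 were below the filter. At an adjusted p below 0.05, 0 of 44 were called by limma, where 0.041% of all tested genes were called, and the adjusted p of members ran from 0.701 to 0.993. At an unadjusted p below 0.05 there were 3 members, or 6.82%, beside 6.64% of all tested genes. BRD2 and SIRT4 were higher, as were 3.7% of all tested genes, and CHD6 was lower, as were 2.94%. Groups did not overlap for 5 members, 11.4% of 44, beside 13.4% of all tested genes. BRD2, SIRT4 and HDAC5 lay above the controls, as did 8.27% of all tested genes, and CHD6 and SMARCE1 lay below them, as did 5.18%. These shares are close to those of the other genes. With MAT2A-inhibited morula 1 as the only inhibited embryo, which leaves out the 2 libraries with EIF1AY, the differences were -1.29 for CHD6, 0.53 for BRD2, 0.50 for SIRT4, 3.37 for HDAC5 and -0.48 for SMARCE1. Members above 0 numbered 28 and members below 0 numbered 16, with 54.2% of all tested genes above 0. The median difference of the members was 0.11, and that of all tested genes was 0.04. The median spread between embryos of a group was 0.40 for the members and 0.40 for all tested genes (SD, log2 scale). In RNA from whole embryos, fewer cells of a type and less RNA per cell cannot be told apart.

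**Figure D2:**
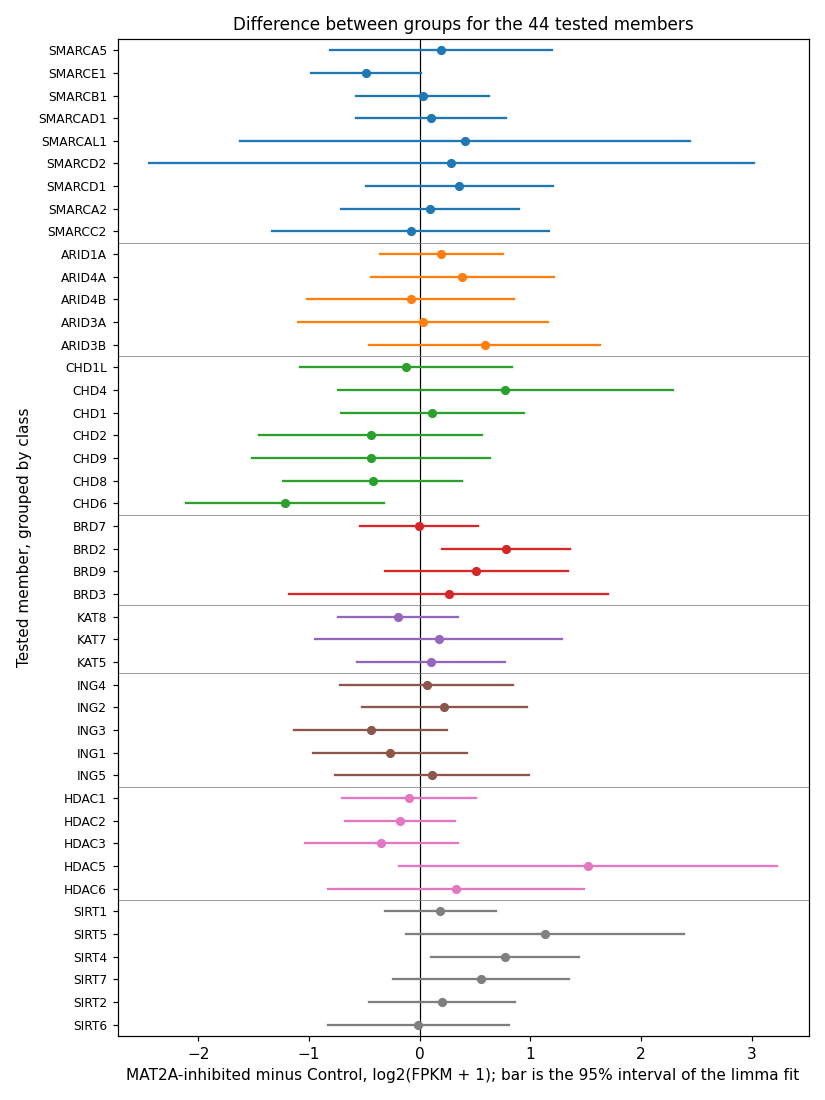
Difference between MAT2A-inhibited and control morulae for the 44 tested members on the log2(FPKM + 1) scale, as points with 95% intervals of the limma fit, coloured and grouped by class. The intervals of BRD2, SIRT4 and CHD6 leave out 0 before adjustment, and those of SMARCAL1, SMARCD2 and HDAC5 are among the widest.

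By class, levels were summed over the members with a row in every library, and these sums overlapped between groups for 7 of the 8 classes. The HDAC sum, over 8 genes without HDAC8, was 403, 431 and 525 FPKM in MAT2A-inhibited morulae, against 471, 458 and 499 FPKM in controls. With HDAC8 added, which leaves out control 2, it was 492, 489 and 601 FPKM in MAT2A-inhibited morulae. Controls 1 and 3 had 632 and 653 FPKM, and the groups did not overlap in these 5 libraries. That sum was chosen after the data were seen. Control 2 had 458 FPKM without HDAC8 and 104 FPKM in a row merged from HDAC8 and CITED1. Together these lie below MAT2A-inhibited morula 3, so the separation rests on leaving out control 2. The SMARC sum over 11 genes was 390.5, 201 and 206 FPKM in MAT2A-inhibited morulae, against 247, 248 and 215 FPKM in controls. MAT2A-inhibited morula 1 stood highest there, and the other 2 inhibited embryos lay below every control. The same embryo held the highest CHD sum, at 128 FPKM, beside 57.1 and 55.0 FPKM in MAT2A-inhibited morulae 2 and 3 and 59.4, 95.2 and 61.3 FPKM in controls. The KAT sum was highest in MAT2A-inhibited morula 2, at 84.4 FPKM, with 47.6 and 47.9 FPKM in the other inhibited embryos and 47.0 to 61.1 FPKM in controls. Without the highest embryo of each, the log2 ratio of mean sums was -0.22 for SMARC, -0.36 for CHD and -0.24 for KAT, against 0.17, 0.15 and 0.09 with it.

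Over all 6 libraries, the BRD sums were the ones that did not overlap between groups. They were 79.8, 83.8 and 80.4 FPKM in MAT2A-inhibited morulae, against 77.5, 62.0 and 64.3 FPKM in controls, with control 1 close below the inhibited embryos. Of the 4 BRD genes only BRD2 did not overlap between groups, and the separation of the sums rests on it. Library factors from median-of-ratios scaling were 1.043 for MAT2A-inhibited morula 1 and 1.004 for control 1. Division by them puts control 1 above that embryo, and the sums then overlap. The sirtuin sum was 137, 130.01 and 183 FPKM in MAT2A-inhibited morulae, against 134, 115 and 103 FPKM in controls, with overlap through MAT2A-inhibited morula 2 and control 1. Of the 6 tested sirtuins, 5 had a difference above 0, with a median of 0.38. Of the 7 tested CHD genes, 5 had a difference below 0, with a median of -0.42, although the mean CHD sum was higher in MAT2A-inhibited morulae, at 80.1 ± 41.6 FPKM, than in controls, at 72.0 ± 20.1 FPKM (SD, n = 3 each). The class sums of ARID and ING ran from 30.95 to 46.2 and from 39.4 to 47.6 FPKM over all 6 libraries. Sums over members were not tested.

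**Figure D3:**
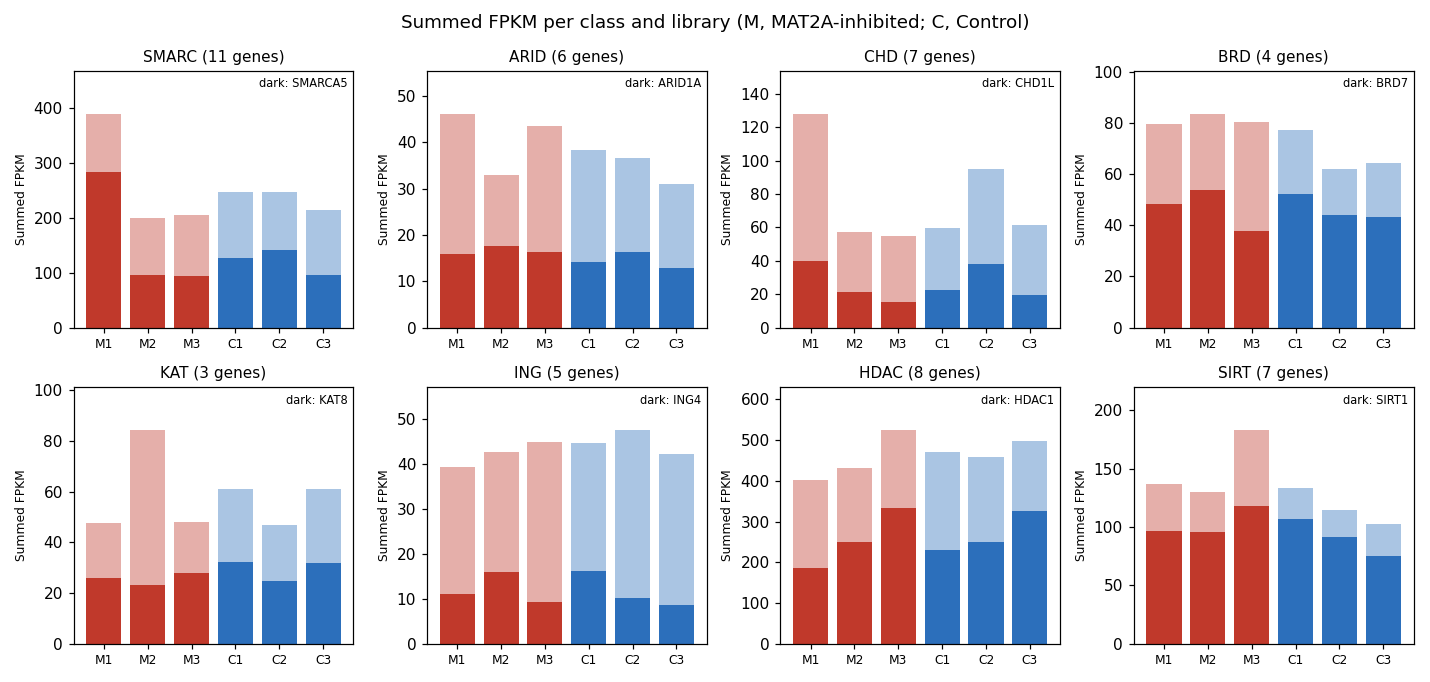
Summed FPKM of each class per library, MAT2A-inhibited morulae 1 to 3 (M1 to M3, red) and controls 1 to 3 (C1 to C3, blue), without HDAC8, with the gene of highest mean in the dark part of each bar. The SMARC and CHD sums are highest in M1, at 390.5 and 128 FPKM, and the KAT sum in M2, at 84.4 FPKM.

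Among the ATPases that move nucleosomes, CHD6 was the member with the smallest p. CHD6 lies on chromosome 13, at 70726875 to 70926564 of build bosTau8, which all positions here use. Its level was 1.27, 0.762 and 2.42 FPKM in MAT2A-inhibited morulae, with 5.25, 5.91 and 2.95 FPKM in controls. All 3 inhibited values lay below all controls, and the gap between MAT2A-inhibited morula 3 and control 3 was small. The limma fit gave -1.21 ± 0.38 (SE), an adjusted p of 0.701 and a 95% interval of -2.11 to -0.32 before adjustment. A microRNA locus listed at 0 in every library lies inside it. CHD8, a relative of CHD6, had 2.64, 4.17 and 2.07 FPKM in MAT2A-inhibited morulae and 2.95, 5.45 and 4.47 FPKM in controls. Those groups overlapped, and the difference was -0.42 ± 0.35.

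CHD4 and SMARCA5 each had 1 large value, in the same embryo. CHD4, the ATPase of the NuRD complex, which pairs remodeling with deacetylation by HDAC1 and HDAC2, was at 62.3, 11.1 and 10.8 FPKM in the MAT2A-inhibited embryos and at 9.68, 8.84 and 16.2 FPKM in controls. SMARCA5, the ISWI-type ATPase that spaces nucleosomes, was at 284, 95.5 and 94.9 FPKM in the MAT2A-inhibited embryos and at 126, 141 and 96.1 FPKM in controls. MAT2A-inhibited morula 1 was 5.76 times and 2.95 times the median of the other 5 embryos for these genes. The remaining embryos overlapped between groups for CHD4, while the other 2 inhibited embryos lay below every control for SMARCA5, by little in the case of control 3. The differences, 0.78 ± 0.65 for CHD4 and 0.20 ± 0.43 for SMARCA5, became -0.027 and -0.33 without that embryo, and 2.38 and 1.24 with it as the only inhibited one. Its depth, 54000000 fragments, was within the range of the others.

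CHD1L, a remodeler activated by poly(ADP-ribose), was also highest in MAT2A-inhibited morula 1, at 39.6 FPKM, beside 21.1 and 15.1 FPKM in MAT2A-inhibited morulae 2 and 3 and 22.4, 38.1 and 19.3 FPKM in controls. Here control 2 was nearly as high. CHD1, which binds methylated lysine 4 of histone H3 in mammals, was at 17.5, 11.9 and 17.5 FPKM in the MAT2A-inhibited embryos and at 11.01, 23.0 and 11.1 FPKM in controls. CHD2, its close relative, was at 3.87, 2.83 and 3.26 FPKM in the MAT2A-inhibited embryos and at 3.12, 10.1 and 3.37 FPKM in controls. Control 2 was the highest library for both genes, and its removal brought the CHD2 difference to 0.019, against -0.44 with it. SMARCAL1, which remodels stalled replication forks, was at 4.31, 3.62 and 26.1 FPKM in the MAT2A-inhibited embryos and at 19.2, 2.68 and 2.83 FPKM in controls, high in 1 embryo of each group. SMARCAD1, a remodeler that keeps heterochromatin through replication in mammals, was at 22.4 ± 7.60 FPKM in MAT2A-inhibited and 20.1 ± 1.91 FPKM in control morulae (SD, n = 3 each). CHD9 ran from 0.948 to 5.29 FPKM in MAT2A-inhibited and from 3.83 to 5.001 FPKM in control morulae.

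The ATPases of the BAF complexes were low. SMARCA2 was at 0.928 to 2.06 FPKM in MAT2A-inhibited and 0.677 to 1.66 FPKM in control morulae. The row shared by SMARCA4 and the microRNA MIR2882 (chromosome 7), which is no member, was at 4.84 ± 0.922 FPKM in MAT2A-inhibited and 3.96 ± 0.974 FPKM in control morulae (SD, n = 3 each).

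Among the other subunits of the BAF and PBAF remodelers, SMARCE1 was lower in each MAT2A-inhibited embryo. SMARCE1, a subunit with a DNA-binding HMG domain (chromosome 19, 41488335 to 41511658), was at 38.5, 39.7 and 36.5 FPKM in the MAT2A-inhibited embryos and at 48.3, 50.9 and 63.8 FPKM in controls. The groups did not overlap, and the inhibited embryos lay within 1.09-fold of each other. The difference was -0.49 ± 0.21, with a limma adjusted p of 0.746. The core subunit SMARCB1 was at 23.5 ± 3.71 FPKM in MAT2A-inhibited and 23.1 ± 4.34 FPKM in control morulae (SD, n = 3 each), a difference of 0.03 with a 95% interval of -0.57 to 0.63. ARID1A, which anchors the canonical BAF complex to DNA, was at 15.9, 17.7 and 16.4 FPKM in MAT2A-inhibited and 14.1, 16.4 and 12.9 FPKM in control morulae. It was the most even member between embryos, with a highest value 1.37 times the lowest.

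BRD7 and BRD9 mark different forms of this remodeler, PBAF and the non-canonical BAF complex. BRD7 was at 48.4, 53.9 and 37.9 FPKM in the MAT2A-inhibited embryos and at 52.3, 44.2 and 43.4 FPKM in controls, a difference of -0.01 with a 95% interval of -0.54 to 0.52. BRD9 was at 9.48, 8.73 and 16.3 FPKM in the MAT2A-inhibited embryos and at 10.8, 6.35 and 6.03 FPKM in controls, a difference of 0.51 ± 0.35. Both overlapped between groups.

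SMARCD2 and SMARCC2, structural subunits of BAF, were listed at 0 in the same 2 libraries. SMARCD2 was at 8.997 and 12.5 FPKM in the MAT2A-inhibited embryos 1 and 2 and at 7.92 and 7.34 FPKM in controls 1 and 3, and was listed at 0 in MAT2A-inhibited morula 3 and control 2. SMARCC2 was at 1.69 and 1.15 FPKM in the MAT2A-inhibited embryos 1 and 2, at 1.60 and 1.64 FPKM in controls 1 and 3, and at 0 in the same 2 libraries. These 0 values were listed with an OK status, but a 0 can still be a failed estimate, and this was not tested. The end of SMARCD2 overlaps that of the proteasome gene PSMC5, which was at 146 to 209 FPKM in MAT2A-inhibited and 137 to 188 FPKM in control morulae and was not low in the libraries where SMARCD2 was 0. SMARCD1, a relative of SMARCD2, was at 2.42 ± 0.398 FPKM in MAT2A-inhibited and 1.79 ± 1.11 FPKM in control morulae. Other members with a 0 in some library were SMARCA1, HDAC11 and SIRT3.

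The ARID proteins outside the BAF complex varied without a group pattern. ARID4A and ARID4B belong to the SIN3 deacetylase complex. ARID4A was at 16.7, 7.26 and 9.54 FPKM in MAT2A-inhibited and 9.24, 8.18 and 6.34 FPKM in control morulae. ARID4B was at 8.93, 4.61 and 12.8 FPKM in MAT2A-inhibited and 12.1, 7.49 and 7.14 FPKM in control morulae. ARID3B, a DNA-binding factor, was at 3.02, 1.19 and 2.15 FPKM in MAT2A-inhibited and 1.03, 2.31 and 0.219 FPKM in control morulae, a difference of 0.59 ± 0.45. All 3 genes overlapped between groups. ARID3A ran from 0.426 to 4.19 FPKM over the 6 libraries, with both extremes in controls, and ARID5A did not exceed 1.80 FPKM.

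Of the readers of acetylated histones, BRD2 gave the narrowest controls. BRD2 belongs to the BET family, which brings transcription machinery to acetylated chromatin (chromosome 23, 7239353 to 7247854). Its 3 MAT2A-inhibited values were 15.8, 20.3 and 21.1 FPKM, and its control values 11.001, 10.5 and 10.3 FPKM. The groups did not overlap, and the controls lay within 1.07-fold of each other. Means were 19.1 ± 2.89 FPKM in MAT2A-inhibited and 10.6 ± 0.354 FPKM in control morulae (SD, n = 3 each). The difference was 0.78 ± 0.25, with a limma adjusted p of 0.701 and a 95% interval of 0.20 to 1.36 before adjustment. Its locus overlaps BOLA-DOA, which was listed at 0 in every library. BRD3, of the same family, was at 6.08, 0.849 and 5.01 FPKM in MAT2A-inhibited and 3.36, 0.895 and 4.51 FPKM in control morulae, lowest in replicate 2 of each group.

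The acetyltransferases showed no difference beyond their spread. KAT8, which acetylates histone H4, was at 25.8, 23.2 and 28.0 FPKM in MAT2A-inhibited and 32.4, 24.8 and 32.0 FPKM in control morulae, a difference of -0.20 with a 95% interval of -0.74 to 0.34. KAT7, which acts at replication origins and gene bodies in mammals, was at 17.7, 55.3 and 15.1 FPKM in MAT2A-inhibited and 24.3, 17.1 and 25.04 FPKM in control morulae. MAT2A-inhibited morula 2 stood apart at 3.13 times the median of the other 5, and its removal turned the difference for KAT7 to -0.40, against 0.17 with it. KAT5, of the NuA4 complex, was at 4.92 ± 0.915 FPKM in MAT2A-inhibited and 4.49 ± 0.666 FPKM in control morulae (SD, n = 3 each).

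The ING proteins guide these enzymes. ING3, a subunit of NuA4 with KAT5, was at 7.71, 6.65 and 7.35 FPKM in MAT2A-inhibited and 7.39, 13.1 and 10.8 FPKM in control morulae, a difference of -0.44 ± 0.30. The lowest control lay inside the inhibited range. ING1 and ING2 join the SIN3 deacetylase complex. ING1 was at 7.91, 6.18 and 7.66 FPKM in MAT2A-inhibited and 7.36, 12.1 and 7.83 FPKM in control morulae. ING2 was at 9.30, 9.85 and 15.4 FPKM in MAT2A-inhibited and 7.53, 8.87 and 12.7 FPKM in control morulae. Each group held overlapping values for both genes, and the locus of ING1 overlaps that of ANKRD10, so that their reads may be shared. ING4, which works with KAT7, was at 12.1 ± 3.47 FPKM in MAT2A-inhibited and 11.7 ± 4.01 FPKM in control morulae, and ING5 at 4.16 ± 1.01 FPKM in MAT2A-inhibited and 3.97 ± 2.01 FPKM in control morulae (SD, n = 3 each).

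The deacetylases held the highest levels. HDAC1 and HDAC2 are the catalytic subunits of NuRD, SIN3 and CoREST. HDAC1 was at 185, 250.3 and 333 FPKM in MAT2A-inhibited and 229, 251 and 326 FPKM in control morulae, a difference of -0.09 with a 95% interval of -0.70 to 0.51. HDAC2 was at 114, 107 and 129.8 FPKM in MAT2A-inhibited and 163, 125 and 112 FPKM in control morulae, a difference of -0.18 with an interval of -0.68 to 0.32. HDAC1 varied more between embryos of a group than between groups. HDAC3, the enzyme of the NCoR complex, has 2 loci with its symbol on chromosome 7. Their sum was 50.1, 65.7 and 35.4 FPKM in MAT2A-inhibited and 66.1, 75.9 and 48.3 FPKM in control morulae. Replicate 3 was the lowest and replicate 2 the highest in each group.

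HDAC8, a class I enzyme that acts on cohesin in human cells, was lower in the inhibited embryos in every library where it had its own row. On chromosome X (83228463 to 83475079), its level was 88.8, 57.6 and 75.8 FPKM in the MAT2A-inhibited embryos and 162 and 155 FPKM in controls 1 and 3. No inhibited value came near controls 1 and 3. In control 2 the gene shared 1 merged row with its neighbour CITED1, at 104 FPKM, and it was therefore outside the test. That row, CITED1 included, lay nearer to MAT2A-inhibited morula 1 than to controls 1 and 3. The separation was therefore seen against controls 1 and 3 only. CITED1 alone was at 7.59 to 11.1 FPKM in MAT2A-inhibited morulae and at 14.4 and 12.9 FPKM in controls 1 and 3. A limma fit over the 5 other libraries, without control 2 and added after the data were seen, gave a difference of -1.11 ± 0.25 with an adjusted p of 0.672. The inhibited embryo without EIF1AY was the highest of the 3, at 88.8 FPKM, and the part of embryo sex in the difference was not tested.

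The remaining deacetylases were low or uneven. HDAC5, a class IIa enzyme that shuttles between nucleus and cytoplasm, was at 38.2, 3.78 and 5.89 FPKM in MAT2A-inhibited and 3.11, 2.19 and 3.15 FPKM in control morulae. The groups did not overlap, yet 1 embryo set the size: the difference was 1.52 ± 0.73 (limma adjusted p = 0.750), 0.60 without MAT2A-inhibited morula 1, and 3.37 with that morula alone. HDAC6, a cytoplasmic tubulin deacetylase on chromosome X, was at 6.93, 3.16 and 14.1 FPKM in MAT2A-inhibited and 7.16, 3.67 and 5.63 FPKM in control morulae. Its highest value was in MAT2A-inhibited morula 3, without which the difference was -0.14, against 0.33 with it. HDAC10, a polyamine deacetylase in human cells, reached 1 FPKM in 2 libraries only and was not tested: it was at 7.71, 0.637 and 3.55 FPKM in MAT2A-inhibited and 0.871, 0.389 and 0.675 FPKM in control morulae. HDAC7 was at 0.668 to 2.43 FPKM in MAT2A-inhibited and 0.479 to 0.727 FPKM in control morulae, and HDAC11 did not exceed 1.75 FPKM.

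**Figure D4:**
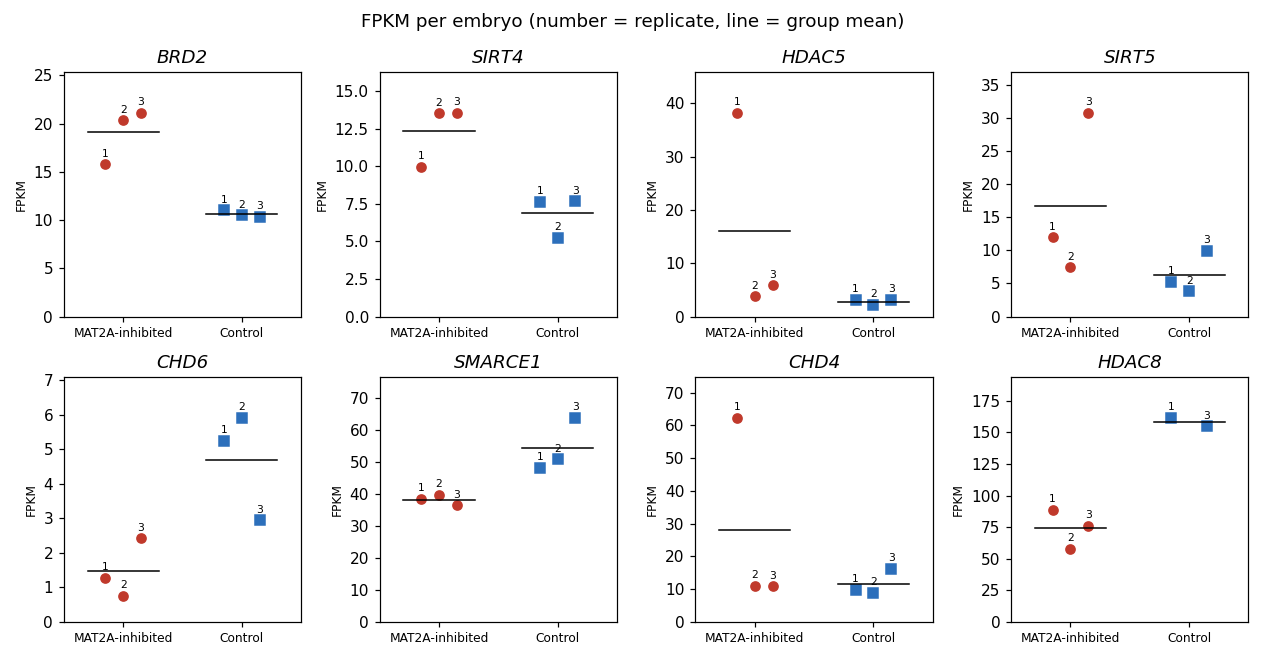
FPKM per embryo for 8 members, MAT2A-inhibited morulae as red circles left of control morulae as blue squares, with the replicate number above each point and the group mean as a line; HDAC8 has no row of its own in control 2. BRD2, SIRT4, HDAC5, CHD6 and SMARCE1 do not overlap between groups, while CHD4 and HDAC5 carry 1 high value, 62.3 and 38.2 FPKM, in MAT2A-inhibited morula 1.

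Mitochondrial sirtuins gave the largest differences of the NAD-dependent deacylases. SIRT4 (chromosome 17, 64875357 to 64893142) had 9.99, 13.5 and 13.6 FPKM in the MAT2A-inhibited embryos, with 7.66, 5.26 and 7.67 FPKM in controls. The groups did not overlap. The difference was 0.77 ± 0.29 with a limma adjusted p of 0.746. SIRT5, which removes succinyl and malonyl groups from lysine, was at 11.96, 7.42 and 30.8 FPKM in MAT2A-inhibited and 5.27, 3.82 and 9.93 FPKM in control morulae. Control 3 lay inside the inhibited range, and replicate 3 was the highest and replicate 2 the lowest in both groups. The difference was 1.13 ± 0.54 (limma adjusted p = 0.750), and 0.60 without MAT2A-inhibited morula 3. SIRT3, the main mitochondrial deacetylase, was at 3.58, 0 and 0.898 FPKM in MAT2A-inhibited and 1.21, 0.715 and 0.607 FPKM in control morulae and was not tested.

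The nuclear and cytoplasmic sirtuins differed less. SIRT1, which deacetylates histones and transcription factors, was at 96.3, 95.7 and 118 FPKM in MAT2A-inhibited and 107, 91.5 and 75.03 FPKM in control morulae, a difference of 0.19 with a 95% interval of -0.32 to 0.69. SIRT7, a nucleolar enzyme, was at 9.11, 6.75 and 14.3 FPKM in MAT2A-inhibited and 6.35, 7.55 and 5.01 FPKM in control morulae, a difference of 0.55 ± 0.34. Each overlapped between groups. SIRT2 was at 4.65 ± 0.0621 FPKM in MAT2A-inhibited and 3.95 ± 0.856 FPKM in control morulae, and SIRT6 at 1.42 ± 0.676 FPKM in MAT2A-inhibited and 1.40 ± 0.463 FPKM in control morulae (SD, n = 3 each).

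The balance within pairs of related genes was compared as the share of 1 gene in the summed FPKM of the pair. Of 18 pairs listed, 8 could be computed, and no pair passed. The test was an exact permutation of the 6 embryos, two-sided, and cannot give a p below 0.1 with 3 against 3. CHD1 held 81.9%, 80.8% and 84.3% of the CHD1 and CHD2 sum in MAT2A-inhibited morulae, against 77.9%, 69.5% and 76.7% in controls. This was the one pair whose groups did not overlap (exact permutation p = 0.1, adjusted over 8 pairs 0.8). The share of ING1 in ING1 and ING2 was 39.2% ± 6.42 in MAT2A-inhibited and 48.4% ± 9.78 in control morulae (SD, n = 3 each; exact permutation p = 0.3). ARID4A held 56.4% ± 11.9 of its pair with ARID4B in MAT2A-inhibited and 47.5% ± 4.50 in control morulae (exact permutation p = 0.4). BRD7 held 79.9% ± 8.71 of its pair with BRD9 in MAT2A-inhibited and 86.0% ± 2.76 in control morulae (exact permutation p = 0.3).

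Other pairs stayed close. HDAC1 held 68.0% ± 5.33 of the HDAC1 and HDAC2 sum in MAT2A-inhibited and 66.5% ± 8.02 in control morulae (SD, n = 3 each). SIRT1 held 95.3% to 96.2% of its pair with SIRT2 over all 6 libraries, and SMARCA5 held 100% of its pair with SMARCA1 in every library.

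**Figure D5:**
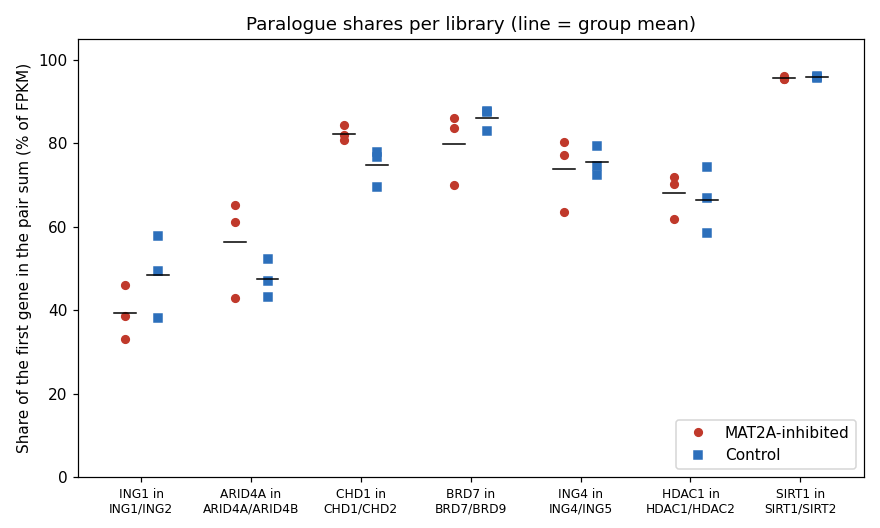
Share of the first-named gene in the summed FPKM of 7 pairs, in percent, 1 point per library, with MAT2A-inhibited morulae as red circles left of control morulae as blue squares and lines at the group means. The groups separate only for CHD1 in CHD1 and CHD2, at 80.8% to 84.3% against 69.5% to 77.9%.

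MAT2A-inhibited morula 3 held the highest value of the 6 libraries for 12 of the 44 tested members, or 27.3%, and for 17.8% of all tested genes. Control 3 held it for 3 members, or 6.82%, and for 18.0% of all tested genes. The other libraries held it for 5 to 9 members.

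Genes that work with the members were counted in 9 lists, and none passed limma over all tested genes in either direction. In the BAF and PBAF list 8 of 9 tested genes were above 0, with a median difference of 0.14, and in the CoREST and NCoR list 8 of 8, with a median of 0.53, beside 0.04 for all tested genes. Among the CoREST and NCoR genes, NCOR1 was listed at 0 in control 1 and GPS2 in 3 libraries, and without these genes, left out after the data were seen, 6 of 6 were above 0, with a median of 0.42. NCOR1, the scaffold of its complex, was at 17.7, 13.8 and 15.2 FPKM in the MAT2A-inhibited embryos and at 23.0 and 12.5 FPKM in controls 2 and 3, so that its difference above 0 rests on the listed 0. TBL1X, an NCoR subunit on chromosome X, was at 21.2, 0.235 and 29.9 FPKM in MAT2A-inhibited and 4.74, 0.390 and 1.07 FPKM in control morulae, so that its difference of 1.89 has an SE of 1.19. CORO2A in the same list was at 0.62 ± 0.44. SS18L1 and BCL7C of the BAF list were at 0.37 ± 0.29 and 0.29 ± 0.24.

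SAP30L, a subunit of the SIN3 deacetylase complex, had the smallest p of all 9 lists. It was at 78.0, 50.2 and 152 FPKM in MAT2A-inhibited and 29.9, 18.8 and 26.3 FPKM in control morulae. The groups did not overlap, and the difference was 1.73 ± 0.41 (limma adjusted p = 0.661). SAP30 was at 0.66 ± 0.37, and 5 of the 9 tested SIN3 genes were above 0 (median 0.10). In the NuRD list 2 of 6 were above 0 (median -0.13). The histone chaperones RBBP4 and RBBP7, the latter on chromosome X, were at -0.29 ± 0.19 and -0.40 ± 0.24. The SMARCA5 partners BAZ1B and CHRAC1 were at 0.77 ± 0.39 and -0.34 ± 0.25, in a list with 3 of 5 above 0 (median 0.25). For the INO80 and SRCAP remodelers, with 9 of 16 above 0 (median 0.04), YY1 was at 0.54 ± 0.22 and INO80C at 1.07 ± 0.50.

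Acetyltransferases outside the KAT names had 3 of 8 above 0 (median -0.19). NAA10, an N-terminal acetyltransferase on chromosome X, was at 289, 127 and 164 FPKM in MAT2A-inhibited and 350.3, 426 and 368 FPKM in control morulae. The groups did not overlap, the 2 libraries with EIF1AY were the lowest, and the difference was -1.06 ± 0.30 (limma adjusted p = 0.688). HAT1, which acetylates newly made histone H4, was at 157, 216 and 179.8 FPKM in MAT2A-inhibited and 267, 373 and 206 FPKM in control morulae, a difference of -0.58 ± 0.26. In the SAGA, NuA4 and MOZ list 11 of 23 were above 0 (median -0.03), with JADE3, on chromosome X, at -0.98 ± 0.43 and BRPF1 at 0.80 ± 0.44. JADE3 was at 3.02, 0.869 and 0.595 FPKM in MAT2A-inhibited and 4.26, 2.50 and 3.99 FPKM in control morulae. MAT2A-inhibited morula 1 lay inside the control range, and the 2 libraries with EIF1AY were the lowest.

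Genes that make or use acetyl-CoA and NAD had 9 of 11 above 0 (median 0.23), beside 54.2% of all tested genes. ACSS1, which makes acetyl-CoA from acetate in mitochondria, was at 35.05, 19.7 and 43.3 FPKM in MAT2A-inhibited and 13.8, 11.2 and 15.2 FPKM in control morulae, a difference of 1.17 ± 0.33 (limma adjusted p = 0.688). NADK, which turns NAD into NADP, was at 22.6, 21.8 and 21.4 FPKM in MAT2A-inhibited and 12.6, 11.7 and 16.2 FPKM in control morulae, a difference of 0.67 ± 0.24 (limma adjusted p = 0.732). Neither gene overlapped between groups.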

How the data were processed

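The submitters' processing notes name TopHat2 2.0.14, Cufflinks 2.2.1 and build bosTau8. The authors deposited 1 gene table per library, in FPKM with bounds in FPKM per the file headers; the sources used here state no settings, annotation or strandedness. Libraries came from polyA RNA with a SMART-Seq HT PLUS kit, per the labels' protocols. FPKM of rows with 1 symbol were summed. Of 13295 symbols in all 6 libraries, 13185 were kept; those in a merged locus or without an OK status were left out. Positions are 1-based, the outermost ends over the libraries. Depth was recovered from the bounds of unannotated loci of 100 to 300 bases, of which 99.7% to 99.8% were whole fragments within 0.05. Counts per gene were not recovered, and the errors given are between embryos. The highest share of equal values above 0 between libraries was 0%.

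The filter was 1 FPKM in at least 3 libraries. The test was limma 3.58.1 (R 4.3.3) with a mean-variance trend and no block, on log2(FPKM + 1), two-sided, at 0.05, a procedure checked on simulated data. Pair shares used an exact permutation test in scipy 1.17.1. Alternatives were a pseudocount of 0.1, other filters and scalings, no trend, a replicate block, 1 row per symbol, and libraries left out. Members, lists, pairs and tests were chosen with earlier results of these data known. Named are the 12 members of smallest p, the 2 highest of each class, members both absent from 1 library (0 FPKM) and above 10 FPKM elsewhere, the genes of the 4 pairs with the largest share difference, X-linked members, and the 2 genes of smallest p in each partner list; other members were named after their values were seen.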

Additional observations from a re-analysis of the deposited data

How the results depend on the processing

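No member was called under any of the 16 alternatives. Genes called over the whole table numbered 3, and became 0 to 8 with 1 library left out (0 without any one inhibited embryo, 8 without control 3), 0 without genes that hold a 0, 0 without the 2 libraries with EIF1AY, and 1 with no filter, with a mean of at least 5 FPKM, or with the replicate block. Members with an unadjusted p below 0.05 numbered 5 with the replicate block and 1 to 4 with 1 library left out (1 without MAT2A-inhibited morula 3), against 3. The replicate number was not taken as a pairing, since the labels say nothing of one. Same-numbered deviations correlated at 0.05, 0.10 and 0.19, and differently numbered ones at -0.21 to 0.10. These values cannot settle whether embryos were paired. The block changed no member's call. Members whose groups did not overlap numbered 6 to 11 with 1 library left out and 20 without the 2 libraries with EIF1AY, against 5, as fewer samples overlap less often by construction.

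Without the libraries with EIF1AY, 1 inhibited embryo remained, assumed to vary like the controls. The log2 ratios of class sums then moved to 0.72 for SMARC, 0.83 for CHD, -0.19 for ING, -0.24 for HDAC and -0.24 for KAT, against 0.17, 0.15, -0.08, -0.07 and 0.09, and differences turned to 0.037 for ARID4B, 0.058 for BRD7, 0.62 for CHD1L, -0.026 for ING2, -0.012 for ING4 and -0.29 for KAT7. The shares of HDAC1 and ING4 in their pairs turned to -4.57 and 1.79 points, against 1.49 and -1.72. With 1 library left out they ran from -2.58 to 5.43 and from -5.02 to 3.34 points. Of 475 refitted differences of 30 named members, 27 changed sign. Leaving out 1 library gave ranges of -0.38 to 0.27 for ARID4B, -0.12 to 0.13 for BRD7, -0.054 to 0.44 for CHD1, -0.49 to 0.18 for CHD1L, -0.69 to 0.019 for CHD2, -0.027 to 1.18 for CHD4, -0.30 to 0.12 for HDAC1, -0.14 to 0.79 for HDAC6, -0.14 to 0.31 for ING4, -0.40 to 0.51 for KAT7, -0.33 to 0.46 for SMARCA5 and -0.75 to 1.47 for SMARCD2. With HDAC8 added over 5 libraries, which leaves out control 2 and was chosen after seeing the data, the HDAC ratio was -0.29. The causes were not tested. With 3 embryos per group the median SE of a member was 0.35.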
